A study of Mus musculus with 4 samples.

Results

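The receptors Ccr2, Cx3cr1, Ccr1 and Cxcr4, 4 of the 28692 genes in the table, were followed across single mononuclear phagocytes (monocytes, macrophages and some cells led by dendritic cell genes) of the mouse colon. Chemokine receptors sit in the cell membrane, bind small secreted proteins (chemokines) and, through G proteins, steer the cell towards their source. Monocytes of the blood carry Ly6C and CCR2 when they leave the marrow and enter the gut wall. There they mature into macrophages, which lose Ly6C and CCR2 and gain CX3CR1, the receptor for fractalkine (Cx3cl1), and complement genes such as C1qa. CCR1 binds inflammatory chemokines, and CXCR4, the receptor for Cxcl12, holds cells in the bone marrow.

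The cells came from the colon lamina propria of 4 male C57/Bl6N mice and had been sorted for CD11b together with Ly6C or CD64. Mice DEP 11 and DEP 13 had received 12 µg of diesel exhaust particles (DEP) in 200 µL of PBS by gavage, 5 times weekly over some 6 months. Mice PBS 2 and PBS 3 had received PBS alone, and levels by mouse are always given in the order DEP 11, DEP 13, PBS 2, PBS 3. The gate used Ly6C protein, so the mix of Ly6c2-high and Ly6c2-low cells also reflects the sort. Unique molecular identifiers (UMIs, 1 per captured transcript) summed to between 4489342 in DEP 13 and 10293703 in PBS 2. Of 6954 barcodes, 4771 had at least 1000 UMIs. After removal of 406 cells in clusters led by genes of other cell types, 4365 cells remained (1098, 600, 1226 and 1441 by mouse), called phagocytes below. Dendritic cell markers counted as phagocyte markers in that step, so cells led by them were kept. Of the barcodes with at least 1000 UMIs, 12 barcode sequences occurred in more than 1 library.

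The phagocytes were placed in 4 ranges by their Ly6c2 and C1qa levels, neither of which is a member. A level is the number of UMIs of a gene per 10000 UMIs of the summed cells of a mouse. Behind 1 level in 1 range of 1 mouse stood 58 to 1990 UMIs of Ccr2, 48 to 2945 of Cx3cr1, 28 to 1969 of Ccr1 and 6 to 333 of Cxcr4. The cuts were 1.80 for Ly6c2 and 20.9 for C1qa, and 9.85% and 9.55% of the cells lay within 25% of them. The Ly6c2-high C1qa-low range held 888 cells, the range high for both held 315, the range low for both held 799 and the Ly6c2-low C1qa-high range held 2363. Only 16 of the cells high for both came from DEP 13. The ranges were not pure in Ly6c2: at the median depth of the cells low for both (4539 UMIs), a single UMI equals a level of 2.20, above the cut, so these cells are mostly cells in which no Ly6c2 UMI was caught. At the median depth of the cells high for both (5550 UMIs) a single UMI equals 1.80, so 1 Ly6c2 UMI, from the cell or from free RNA, was enough to place a cell there. In these cells all 9 tested of the 11 other monocyte markers were lower than in the Ly6c2-high C1qa-low cells (median log2 fold change −2.64). How many of them express Ly6c2 was not tested. Other markers followed the ranges. Between the Ly6c2-low C1qa-high and the Ly6c2-high C1qa-low range, all 9 of the 11 other monocyte markers that could be tested were lower, and all 14 of the 15 other macrophage markers that could be tested were higher (edgeR, FDR under 5%). Few markers of other cell types passed the filter on low values. Of all tested genes, 19.4% were called higher in this comparison and 20.9% lower. Of the markers, 2 of 11 of plasma cells, which is near that background, 2 of 3 B cell markers (Cd79b and Bank1), 2 of 2 epithelial markers (Car1 and Lgals4) and the only T cell marker tested (Cd4, which gut macrophages also express) were higher in the Ly6c2-low C1qa-high range, as was the only stromal and vessel marker tested (Pecam1). Lower there were 2 of 3 dendritic cell markers (Cd209a, log2 fold change −1.89, and Clec10a, −0.38), while H2-DMb2 was higher, and the only neutrophil (Csf3r, −1.06) and eosinophil (Ear2, −2.68) markers tested. Their part in the receptor levels was not tested.

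Positions are those of GENCODE M21 on mm10. Ccr2 (ENSMUSG00000049103) lies on chr9:124101950-124113557 on the plus strand. Ccr1 (ENSMUSG00000025804) lies on chr9:123962124-123968692 on the minus strand, 133257 bases from Ccr2. Cx3cr1 (ENSMUSG00000052336) lies on chr9:119901616-120069879 on the minus strand, and this long gene model overlaps 9 other genes, among them Csrnp1, Gorasp1 and Xirp1 on the same strand. Cxcr4 (ENSMUSG00000045382) lies on chr1:128588199-128592293 on the minus strand. In the last 1000 bases of each annotated transcript, no run of 50 bases of Ccr2, Ccr1 or Cxcr4 was shared with a transcript of another gene, and 42 of the 1544 runs of Cx3cr1 were.

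The promoters are shown because Ccr2 and Ccr1, which lie near each other on chromosome 9, moved in opposite directions below, and because Cxcr4 stood apart in both level and base composition. No link between sequence and level was tested. Each sequence runs from 250 bases before to 50 bases after the RefSeq start (GRCm38.p6), 5′ to 3′ on the gene's strand. Capitals mark GAGGAA, the core bound by the myeloid factor PU.1, or GGGCGG, the GC box bound by Sp factors, on either strand (their complements are TTCCTC and CCGCCC, and these motifs do not overlap each other).
Ccr2 (chr9:124101933-124102232, plus strand): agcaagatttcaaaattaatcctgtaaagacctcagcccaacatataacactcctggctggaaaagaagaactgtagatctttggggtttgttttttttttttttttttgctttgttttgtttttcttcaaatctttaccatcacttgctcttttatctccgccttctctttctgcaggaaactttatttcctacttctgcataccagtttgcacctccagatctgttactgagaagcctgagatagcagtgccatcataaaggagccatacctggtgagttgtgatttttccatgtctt
Cx3cr1 (chr9:120068247-120068546, minus strand): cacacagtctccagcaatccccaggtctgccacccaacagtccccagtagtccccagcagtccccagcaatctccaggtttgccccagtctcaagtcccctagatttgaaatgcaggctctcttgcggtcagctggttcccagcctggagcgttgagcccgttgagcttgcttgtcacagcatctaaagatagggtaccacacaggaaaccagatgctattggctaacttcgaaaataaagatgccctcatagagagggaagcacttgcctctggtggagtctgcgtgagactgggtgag
Ccr1 (chr9:123968643-123968942, minus strand): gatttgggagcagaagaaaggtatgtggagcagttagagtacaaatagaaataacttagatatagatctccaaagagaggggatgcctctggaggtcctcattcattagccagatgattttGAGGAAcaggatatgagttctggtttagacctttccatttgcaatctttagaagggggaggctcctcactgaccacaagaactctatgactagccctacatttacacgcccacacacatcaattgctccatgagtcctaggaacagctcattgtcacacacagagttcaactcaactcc
Cxcr4 (chr1:128592250-128592549, minus strand): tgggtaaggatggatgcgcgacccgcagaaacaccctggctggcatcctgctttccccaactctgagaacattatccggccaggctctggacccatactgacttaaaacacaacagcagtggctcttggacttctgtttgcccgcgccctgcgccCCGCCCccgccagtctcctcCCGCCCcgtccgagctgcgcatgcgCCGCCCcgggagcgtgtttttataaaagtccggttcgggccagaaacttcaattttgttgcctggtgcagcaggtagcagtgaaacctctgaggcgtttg
GAGGAA occurred once in the Ccr1 window and GGGCGG 3 times in that of Cxcr4, all 3 on the opposite strand. Among all 32851 promoters of the same length, 28.3% held GAGGAA and 35.7% held GGGCGG. The GC content was 38.0% for Ccr2, 44.0% for Ccr1, 54.3% for Cx3cr1 and 59.3% for Cxcr4, against a median of 52.7%. Cxcr4 had 20 CG pairs in its window, Cx3cr1 had 5, and Ccr2 and Ccr1 had 1 each (median of all promoters 7).

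Ccr2, which binds the monocyte attractants Ccl2, Ccl7 and Ccl12, was the most abundant receptor in cells low for C1qa and fell with C1qa. In the Ly6c2-high C1qa-low range its level was 9.59 and 8.19 with DEP and 7.30 and 7.82 with PBS. In the Ly6c2-low C1qa-high range it was 2.91, 2.52, 3.21 and 3.18. The ranges did not overlap over the 4 mice, and the mean went from 8.22 ± 0.982 to 2.96 ± 0.320 (SD, n = 4 mice), 2.78-fold lower. The fitted log2 fold change was −1.42 (SE 0.0847, adjusted p = 3.48e-17, edgeR quasi-likelihood test with the mouse as a block). In that comparison 40.3% of the 6631 tested genes were called and 20.9% were called lower, so being called is common there.

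Cx3cr1 and Ccr1 moved the other way. Cx3cr1 was at 2.39, 2.28, 2.28 and 2.14 in the 4 mice in the Ly6c2-high C1qa-low range, and at 4.47, 4.30, 4.76 and 4.73 in the Ly6c2-low C1qa-high range. Every mouse had the higher level in the C1qa-high cells, with means of 2.27 ± 0.102 and 4.57 ± 0.218 (SD, n = 4) and a log2 fold change of 1.05 (SE 0.0721, adjusted p = 2.50e-15, edgeR). Ccr1, a receptor for Ccl3, Ccl5, Ccl7 and other inflammatory chemokines, was at 1.89, 1.78, 2.52 and 1.53 in the Ly6c2-high C1qa-low cells. In the Ly6c2-low C1qa-high cells it was at 3.17, 2.95, 3.18 and 2.67. It rose in all 4 mice, least in PBS 2, where its level in Ly6c2-high cells was the highest (log2 fold change 0.67, SE 0.0911, adjusted p = 8.66e-08, edgeR). Of the tested genes, 19.4% were called higher in this comparison.

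Cxcr4 was low in all 4 ranges. Its level was 0.436, 0.759, 0.463 and 0.245 by mouse in the Ly6c2-high C1qa-low range, and 0.676, 0.819, 0.538 and 0.356 in the Ly6c2-low C1qa-high range. All 4 mice were higher in the second range, but the mice of 1 range differed among themselves by more than the ranges did. The log2 fold change was 0.40 (SE 0.128, adjusted p = 0.0106, edgeR), and it missed the threshold without the mouse as a block (adjusted p = 0.270), after thinning each cell to 1000 UMIs (adjusted p = 0.122), with both cuts halved (adjusted p = 0.110) and without DEP 11 (adjusted p = 0.101).

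**Figure D1:**
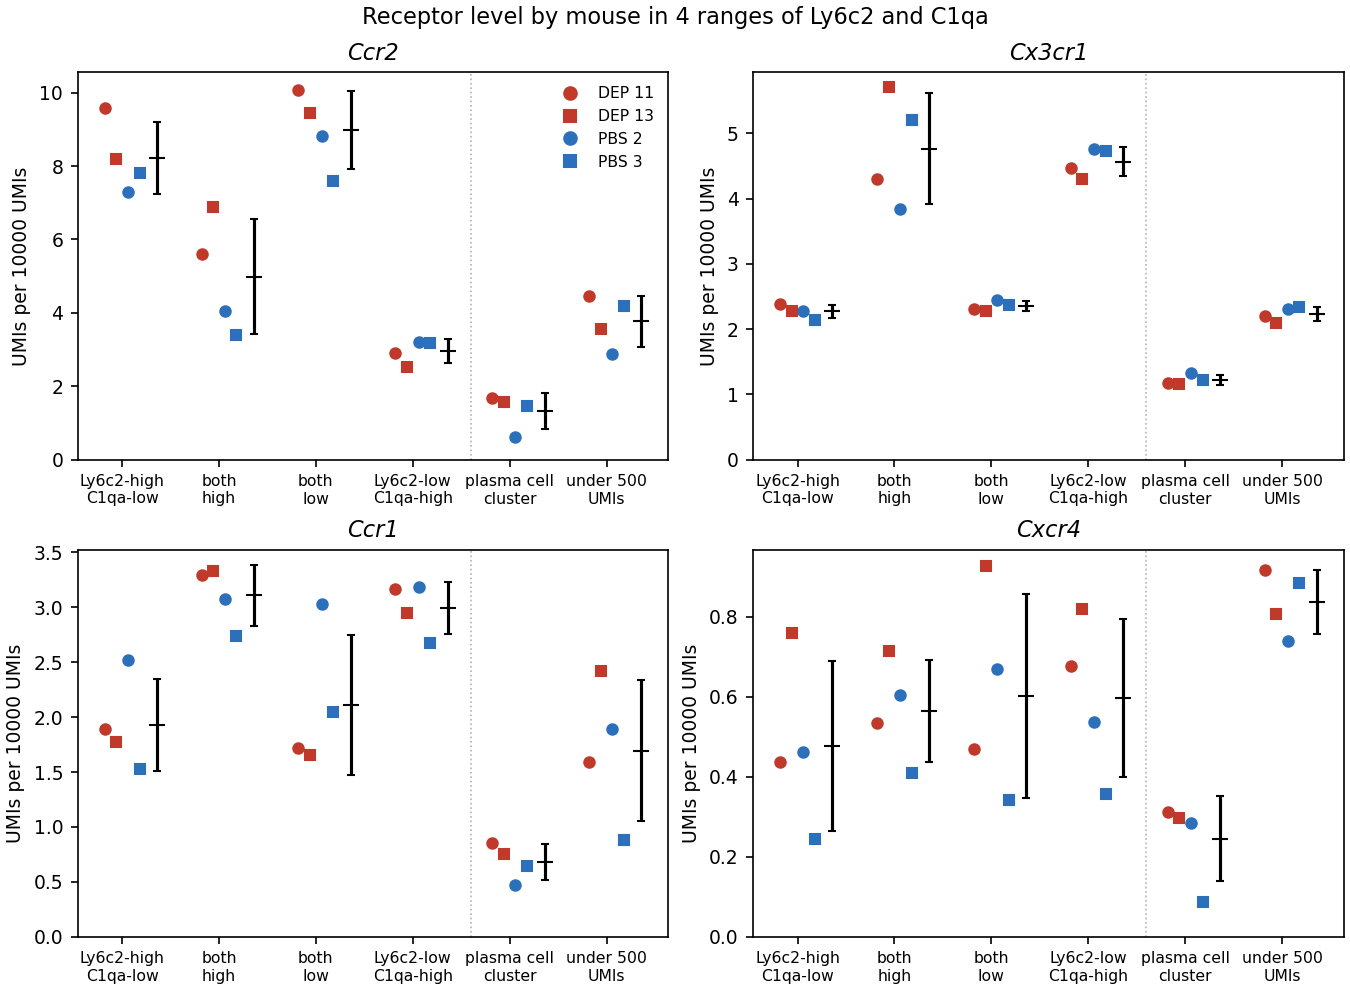
Level (UMIs per 10000 UMIs) of each receptor in each mouse, by range of Ly6c2 and C1qa, with the plasma cell cluster and the barcodes under 500 UMIs to the right of the dotted line. Red marks DEP mice and blue PBS mice, and black bars give the mean and SD over 4 mice. Ccr2 fell from a mean of 8.22 to 2.96 between the Ly6c2-high C1qa-low and the Ly6c2-low C1qa-high range, Cx3cr1 rose from 2.27 to 4.57, and the Cxcr4 points of the ranges overlap.

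In the mixed ranges, Cx3cr1 and Ccr1 sat near the range with the same C1qa state, and Ccr2 of cells high for both lay between the main ranges. Cells high for both genes had Ccr2 levels of 5.61 and 6.90 with DEP and 4.04 and 3.41 with PBS, below the Ly6c2-high C1qa-low cells of the same mouse in all 4 mice. Ccr2 was lower (log2 fold change −0.84, SE 0.103, adjusted p = 3.05e-08, edgeR) and Cx3cr1 and Ccr1 were higher (1.03, SE 0.0871, adjusted p = 2.68e-12, and 0.67, SE 0.114, adjusted p = 1.71e-05) in these cells. With both cuts doubled the Ccr1 difference was no longer called (0.24, adjusted p = 0.688, edgeR), but the range then held only 9, 3, 8 and 6 cells by mouse and the median over all tested genes was −0.52, against 0.00 with the cuts used here. Cxcr4 missed the threshold (0.43, SE 0.187, adjusted p = 0.101), so 3 of the 4 members were called against 22.4% of all tested genes. Cells low for both had mean levels of 8.99 ± 1.06 for Ccr2, 2.35 ± 0.0739 for Cx3cr1, 2.11 ± 0.637 for Ccr1 and 0.602 ± 0.255 for Cxcr4 (SD, n = 4). None of the 4 was called between these and the Ly6c2-high C1qa-low cells, against 5.49% of all tested genes (adjusted p between 0.275 and 0.914, edgeR).

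Between the cells high for both and the Ly6c2-low C1qa-high cells, Ccr2 was the only member called (log2 fold change −0.58, SE 0.103, adjusted p = 4.01e-04, edgeR), where 1.67% of all tested genes were called. It was lower in the Ly6c2-low cells in all 4 mice. The call was lost after thinning (adjusted p = 0.232), without the mouse as a block (0.0654) and without DEP 11 (0.0566, edgeR). With both cuts doubled the value was 0.71 (adjusted p = 0.249, edgeR), beside a median of 0.51 over all tested genes (−0.0096 with the cuts used here), and the 9, 3, 8 and 6 cells then high for both allow no reading of Ccr2. The cells high for both carried called doublets at 2.22%, against 0.225% in the Ly6c2-high C1qa-low range and 2.03% in the Ly6c2-low C1qa-high range, and without the called doublets the Ccr2 difference was −0.57 (adjusted p = 5.25e-04, edgeR).

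When the cells of each mouse were ordered by C1qa and divided into 5 equal parts, Ccr2 was level over the lowest parts and then dropped. Its mean was 8.51 ± 0.807 and 8.44 ± 1.21 in the lowest parts, 4.40 ± 0.770 in the middle, and 2.66 ± 0.411 and 2.21 ± 0.363 in the highest (SD, n = 4 mice). Cx3cr1 ran from 2.32 ± 0.155 and 2.31 ± 0.137 over 3.98 ± 0.0678 to 4.67 ± 0.377 and 5.06 ± 0.212. For both genes the neighbouring parts at either end overlapped over mice, and the middle part overlapped with none.

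Ccr1 climbed more evenly along C1qa, from 1.87 ± 0.489 over 2.25 ± 0.455, 2.70 ± 0.344 and 2.94 ± 0.300 to 3.32 ± 0.160, and every pair of neighbouring parts overlapped over mice. Cxcr4 stayed between 0.496 and 0.692 with no order. Along Ly6c2, cells without a Ly6c2 UMI had a mean Ccr2 level of 4.07 ± 0.392 and cells in the top part of those with one had 7.70 ± 0.733. Cx3cr1 was 4.18 ± 0.157 and 2.30 ± 0.163 in the same cells.

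**Figure D2:**
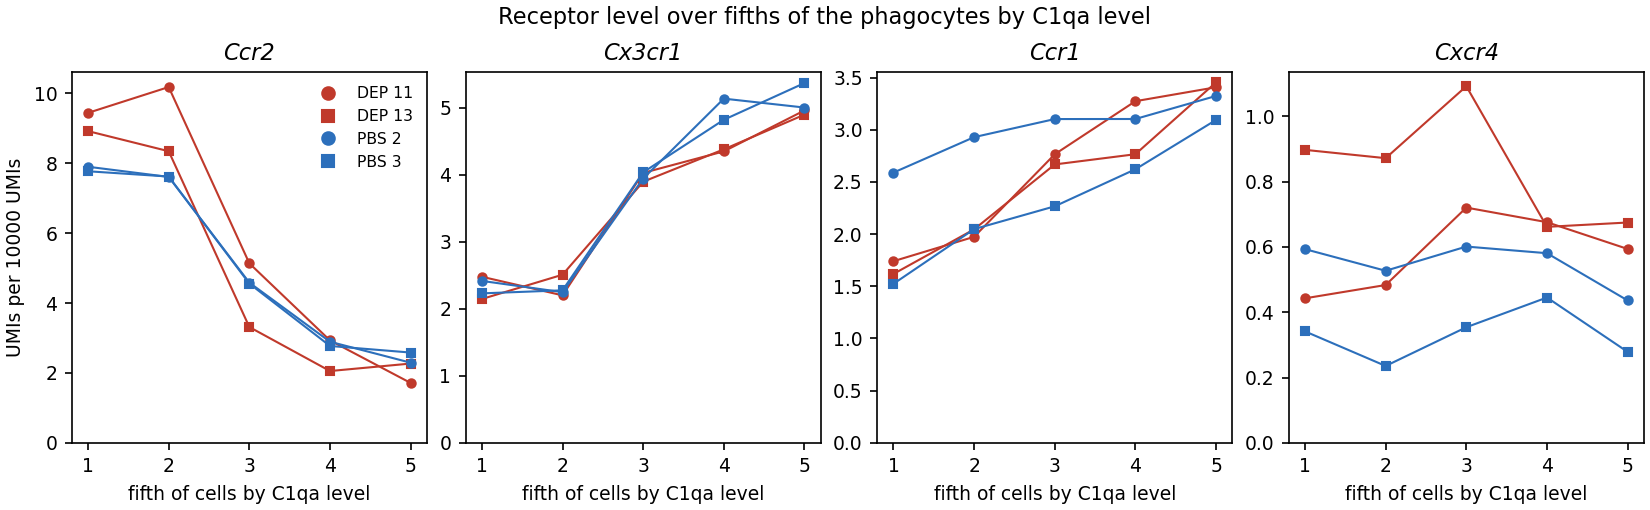
Level (UMIs per 10000 UMIs) of each receptor over the 5 equal parts of each mouse's phagocytes ordered by C1qa level (1 lowest, 5 highest), with 1 line per mouse, DEP red and PBS blue. Ccr2 dropped between the 2nd and 4th part from a mean of 8.44 to 2.66 while Cx3cr1 rose from 2.31 to 4.67, and Cxcr4 showed no trend.

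Depth and free RNA bear on these levels, because RNA set free from broken cells is caught with every cell. As measured, Ccr2 had a UMI in 87.9% ± 3.23 of the Ly6c2-high C1qa-low cells and in 65.3% ± 7.23 of the Ly6c2-low C1qa-high cells (SD, n = 4). The plasma cell cluster, whose cells should not express it, reached 72.6% ± 4.71. Its 87 cells had a median of 20071 UMIs, against 4920 and 7369 in those ranges. At 1000 UMIs per cell the expected shares with Ccr2 were 51.0% ± 3.73 and 23.3% ± 2.55 in the ranges and 11.7% ± 4.04 in the plasma cells. Thinning divides free RNA by a cell's own RNA, and plasma cells are rich in immunoglobulin RNA. Unthinned, 87 plasma cells held 237 Ccr2 UMIs and 2363 Ly6c2-low C1qa-high cells held 5569, so per cell the plasma cells held no fewer, and free RNA and the C1qa-high cells' own Ccr2 cannot be told apart by these shares. The T and B cell cluster (53 cells) had 17.7% ± 8.95, a range over mice that includes the C1qa-high value.

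At the same equal depth, Cx3cr1 had shares of 19.9% ± 0.995 and 34.7% ± 0.971 in the Ly6c2-high C1qa-low and the Ly6c2-low C1qa-high range, against 9.79% ± 0.316 in the plasma cells. Ccr1 had 15.4% ± 2.27 and 24.4% ± 1.84, against 5.99% ± 1.90. For Cxcr4 the shares were 4.75% (2.52% to 7.37% over mice) and 5.98% (3.41% to 7.98%), within the spread of the 5.22% ± 5.16 of the plasma cells, which are themselves known to use this receptor, and of the 8.73% ± 7.97 of the T and B cell cluster. Since plasma, T and B cells can express Cxcr4 themselves and their shares vary widely over mice, no background for Cxcr4 can be read from them.

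**Figure D3:**
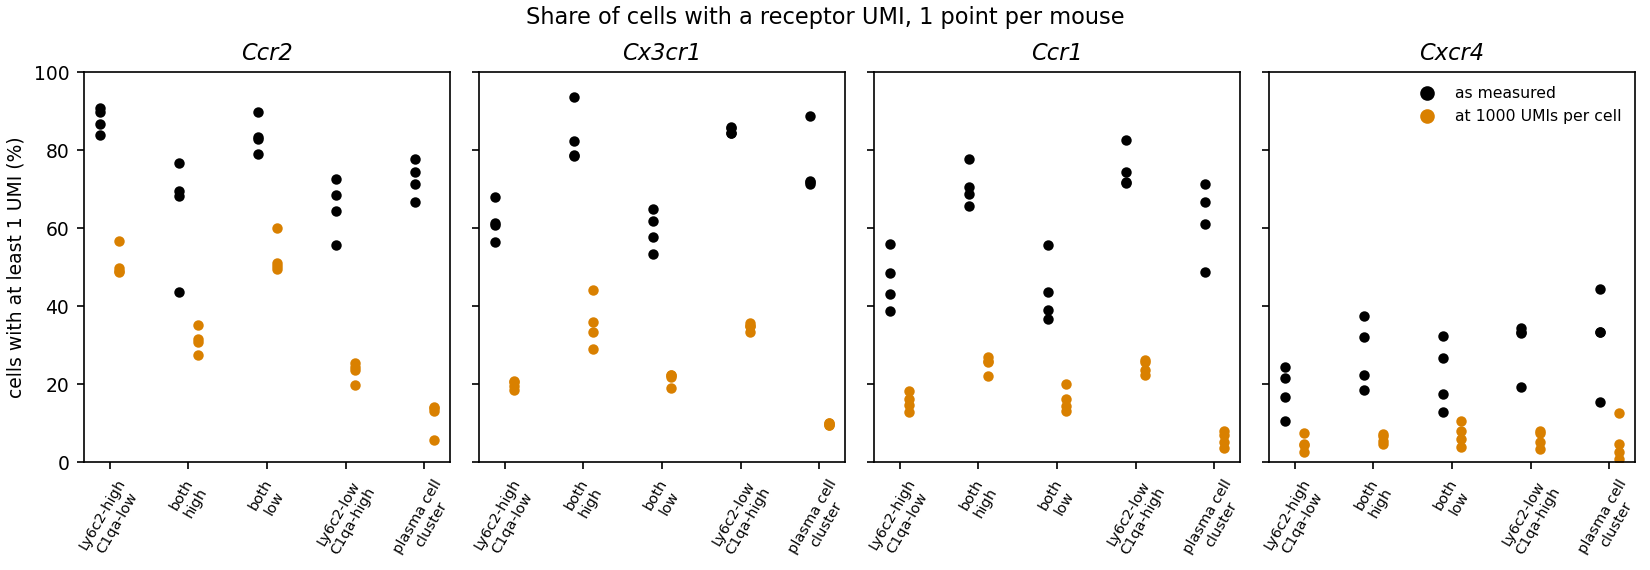
Percent of cells with at least 1 UMI of each receptor, as measured (black) and expected at 1000 UMIs per cell (orange), with 1 point per mouse, in the 4 ranges and the plasma cell cluster. As measured, plasma cells (mean 72.6% for Ccr2) lie among the phagocytes, and at equal depth they fall to 11.7%.

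Barcodes under 500 UMIs, which hold mostly free RNA and debris, had levels of 3.77 ± 0.706 for Ccr2, 2.23 ± 0.107 for Cx3cr1, 1.70 ± 0.640 for Ccr1 and 0.837 ± 0.0796 for Cxcr4 (SD, n = 4). The Cx3cr1 and Ccr1 levels of Ly6c2-high C1qa-low cells differed from these by less than the spread between mice, and the mean Ccr2 level of Ly6c2-low C1qa-high cells was below theirs, with overlap over mice. The Cxcr4 levels of both ranges were below those of the same mouse's low barcodes, except in DEP 13. Its Ly6c2-low C1qa-high cells were at 0.819 and its low barcodes at 0.807. Plasma cells had lower levels, 1.33 ± 0.487 for Ccr2, 1.22 ± 0.0745 for Cx3cr1, 0.683 ± 0.165 for Ccr1 and 0.245 ± 0.106 for Cxcr4. C1qa itself was at 8.64 ± 2.17 in the C1qa-low cells with high Ly6c2.

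The ratio of a receptor to genes of monocytes or macrophages was then described. Free RNA from 1 source carries its genes in 1 ratio, but these genes and the receptor need not share a source. Ccr2 was highest outside the cluster that Ifitm6 and Chil3 led (by cluster below). Plac8, Chil3, Hp and Ifitm6, monocyte genes chosen here after their values were seen, gave 14.7 Ccr2 UMIs per 100 of theirs in Ly6c2-high C1qa-low cells and 23.9 in plasma cells (95% interval for counting error 20.7 to 27.6). In Ly6c2-low C1qa-high cells the ratio was 69.7 (67.3 to 72.1). Barcodes under 500 UMIs had 43.5 (36.4 to 51.9) and the T and B cell cluster 38.0 (from 27 Ccr2 UMIs). By mouse, the C1qa-high cells ran from 64.0 to 80.3, and in PBS 3 they had 74.4 (69.9 to 79.3) where its barcodes under 500 UMIs had 65.8 (45.5 to 94.6). The monocyte genes together were at 55.1 UMIs per 10000 in Ly6c2-high C1qa-low cells and at 4.36 in Ly6c2-low C1qa-high cells. The ratio thus depends on how the ranges were set and cannot tell free RNA from a cell's own Ccr2. These ratios are given as a description. For Cx3cr1 beside 100 UMIs of the macrophage gene C1qb, Ly6c2-high C1qa-low cells had 23.3 and 28.9 with DEP, above the 17.9 and 15.3 with PBS. C1qb itself was at 10.25 and 7.87 UMIs per 10000 in these cells with DEP, and at 12.73 and 14.03 with PBS. Their Cx3cr1 levels were 2.39 and 2.28 against 2.28 and 2.14. The order of the ratios thus follows C1qb, and no DEP effect on Cx3cr1 is read from it. In PBS 3 the ratio (13.4 to 17.3) overlapped that of its barcodes under 500 UMIs (14.9, 9.75 to 22.2). Over all mice the ratio was 19.0 (17.7 to 20.3), against 7.58 (6.54 to 8.75) in plasma cells, 15.1 (12.2 to 18.6) in barcodes under 500 UMIs and 6.90 in the Ly6c2-low C1qa-high cells.

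Subtracting free RNA from each sum, scaled so that it took up all immunoglobulin UMIs, left Ccr2 at 9.17 ± 1.16 and 2.06 ± 0.890 in the Ly6c2-high C1qa-low and the Ly6c2-low C1qa-high range. Cx3cr1 was left at 1.94 ± 0.133 and 5.10 ± 0.314, and Ccr1 at 1.74 ± 0.488 and 3.21 ± 0.336. For Cxcr4 nothing was left in the Ly6c2-high C1qa-low cells of 1 of the 4 mice. The subtracted share ran by mouse from 20.2% to 55.8% of the UMIs in the Ly6c2-high C1qa-low and from 21.9% to 52.0% in the Ly6c2-low C1qa-high range and is uncertain, since low barcodes may also hold real cells.

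By cluster, with clustering done without the 4 receptors, Ly6c2 and C1qa, Ccr2 was highest in clusters 4 and 5. Cluster 4 (575 cells), led by Cd209a, a lectin gene of dendritic cells and some monocytes, had 10.3 ± 1.08. Its 10 leading genes also held the dendritic cell marker Clec10a and none of the monocyte or macrophage markers, and it made up 21.8% of the Ly6c2-high C1qa-low cells and 26.3% of those low for both. Its part in the Ccr2 levels of these ranges was not tested. Cluster 5 (370 cells), led by Prtn3, Apoc1 and Thbs1, had 10.1 ± 1.57. Cluster 2 (593 cells), led by the monocyte genes Ifitm6 and Chil3 and holding Ly6c2 among its leading genes, had 6.56 ± 0.741, so the cells richest in early monocyte genes were not those with most Ccr2. The lowest phagocyte value was 1.40 ± 0.455 in cluster 3 (587 cells), led by H2-M2 and Lilra5, within the spread of the plasma cells.

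Cx3cr1 was highest in cluster 12 (109 cells, 6.72 ± 1.12), led by Ccl8 and Jund, and in cluster 7 (334 cells, 5.88 ± 0.467), led by Folr2 and Pf4, which mark resident macrophages. The levels of these neighbours in the order did not differ beyond their spread. Its lowest values in phagocytes were 1.60 ± 0.990 in cluster 13, led by Hdc and interferon-response genes such as Isg15, and 1.99 ± 0.280 in cluster 8.

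Ccr1 was highest in clusters 3 (3.69 ± 0.424) and 8 (3.47 ± 0.707), which overlapped over mice. Cluster 8 (317 cells) was led by Saa3 and Il1rn and also had Ccr2 at 6.84 ± 0.979, so high Ccr1 occurred beside both low and high Ccr2. Cluster 2 had the lowest Ccr1 of the phagocytes (1.18 ± 0.178).

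Cxcr4 was highest in cluster 12 (2.25 ± 0.938), where it was itself among the leading genes, and in cluster 11 (159 cells, 1.54 ± 0.258). Cluster 11 was led by mitochondrial genes (median 9.56% of UMIs) and both clusters were shallow, with medians of 1356 UMIs in cluster 11 and 2233 in cluster 12. These values are a description, since the clusters came from the same cells.

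**Figure D4:**
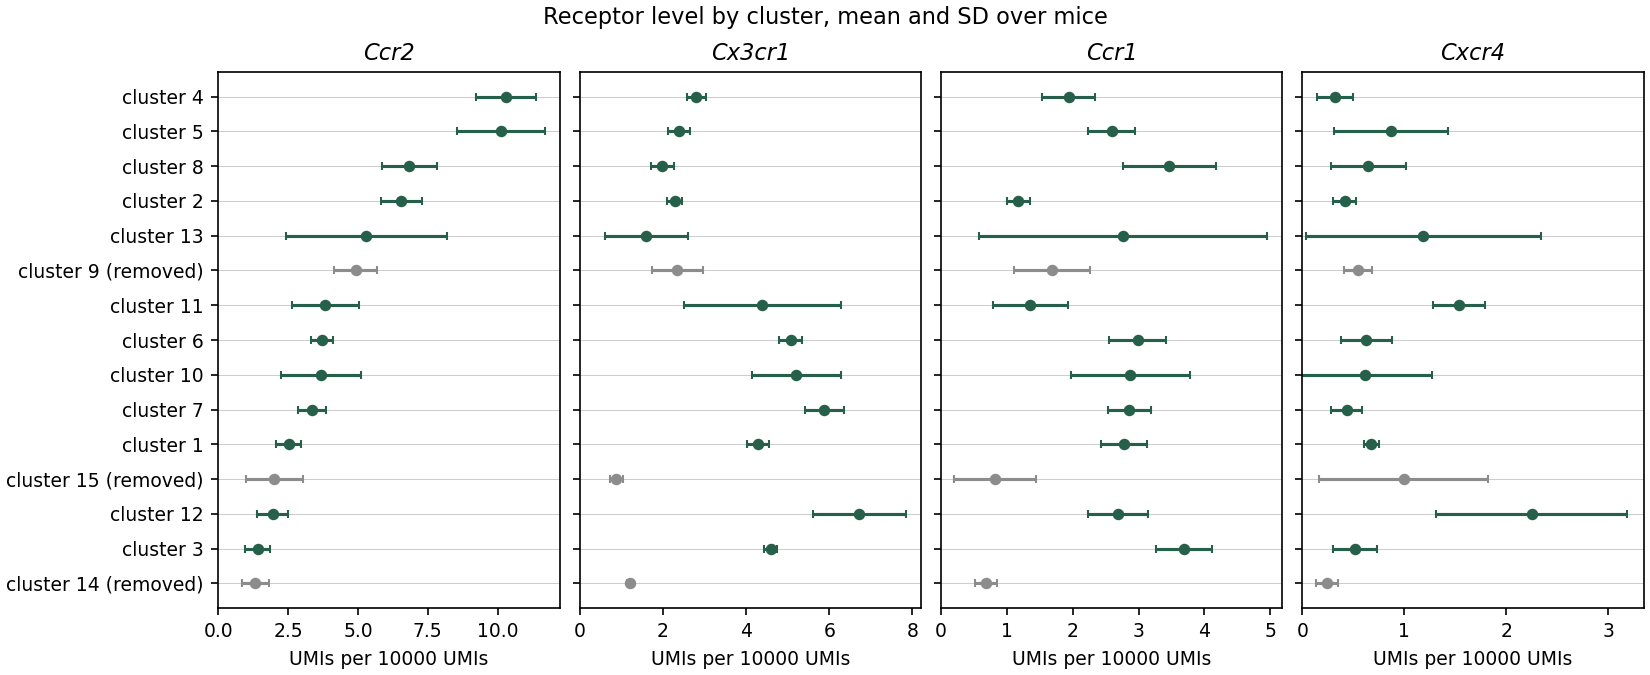
Level (UMIs per 10000 UMIs) of each receptor by cluster, as mean and SD over 4 mice, with clusters in the order of their Ccr2 level and removed clusters in grey. Ccr2 was highest in clusters 4 and 5 (10.3 and 10.1), Cx3cr1 and Cxcr4 in cluster 12 (6.72 and 2.25) and Ccr1 in cluster 3 (3.69).

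Receptors could be seen together in 1 cell. At 1000 UMIs per cell, 9.01% ± 0.975 of the phagocytes were expected to show both Ccr2 and Cx3cr1 (SD, n = 4), against the 10.2% ± 0.967 that independent shares would give, and the observed share was below the other in all 4 mice. This pool joins ranges in which the levels of these receptors run in opposite directions. Within the Ly6c2-high C1qa-low cells the shares were 10.2% ± 1.30 and 10.2% ± 1.14, with the observed share above in 2 mice and below in 2, and within the cells low for both they were 11.3% ± 1.51 and 11.3% ± 1.60. In the Ly6c2-low C1qa-high cells they were 7.80% ± 1.10 and 8.11% ± 1.07, with the observed share below in all 4 mice. For Cx3cr1 and Ccr1 the shares over all phagocytes were 6.68% ± 0.660 and 6.16% ± 0.595, with the observed share above in all 4 mice, as it was in all 4 within the Ly6c2-low C1qa-high cells (8.90% ± 0.933 and 8.48% ± 0.677) and within the cells high for both (9.83% ± 1.58 and 8.99% ± 1.77). In the Ly6c2-high C1qa-low cells they were 3.03% ± 0.704 and 3.08% ± 0.516, and in the cells low for both 3.14% ± 0.775 and 3.43% ± 0.800. The part of free RNA in these pairs was not tested.

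Over the 20 sums of 4 mice and 5 C1qa parts, among 4087 genes, the genes most like Ccr2 were Ms4a4c (Pearson r 0.984), Lsp1, Rps27, Ms4a8a and Rpl18. Those most like Cx3cr1 were Sptssa (r 0.984), Klrb1b, Tgfbr1, Vkorc1 and Zmynd15, and those most like Ccr1 were Cd300c2 (r 0.956), Fcgr4, Il10rb, Rab3il1 and Clec4n. For Cxcr4 the best was Pdcd6ip, at r 0.711, followed by Bri3, Fam71a, Mtdh and Cstb. Ccr2 ran against Cx3cr1 (r −0.94) and Ccr1 (r −0.88). These sums share mice, libraries and the C1qa order, so the values describe a shared course only.

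The rest of the chemokine system was read from lists. Among the other chemokine receptor genes, most were too rare to test. Cxcr3, a receptor for interferon-induced chemokines, was higher in the Ly6c2-low C1qa-high range (log2 fold change 1.40, SE 0.277, adjusted p = 6.43e-05, edgeR). Ccr7, which guides dendritic cells to lymph nodes, had a UMI in 1.63% of the phagocytes, and Ccr10 in 1.31%. Ccrl2, an atypical receptor that binds chemerin, had a UMI in 64.7% of the phagocytes and was not called between these ranges (−0.20, SE 0.0845, adjusted p = 0.0511, edgeR). The neutrophil receptors Cxcr1 and Cxcr2 had 0 and 1 UMIs in all phagocytes.

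Of 10 ligand genes of the 4 receptors, 8 were tested, of which 4 were higher and 2 lower in the C1qa-high range, against 19.4% and 20.9% of all tested genes. Ccl12 (2.74, SE 0.151, adjusted p = 3.09e-18) and Ccl7 (1.98, SE 0.152, adjusted p = 5.72e-14, edgeR), both ligands of CCR2, were higher in the cells with less Ccr2. Ccl2, the main CCR2 ligand, was not called (−0.21, SE 0.116, adjusted p = 0.155). Ccl5 (0.79, SE 0.234, adjusted p = 0.00571, edgeR) and Ccl7, which also bind CCR1, were higher in the cells with more Ccr1. Ccl6 (−1.65, SE 0.0662, adjusted p = 1.54e-22) and Ccl9 (−1.57, SE 0.0667, adjusted p = 7.64e-22), other ligands of CCR1, were lower there, and Ccl3 was not called (−0.04, SE 0.0655, adjusted p = 0.666). Cx3cl1 and Cxcl12, made mainly by epithelium and stroma, had 5 and 33 UMIs in all phagocytes and were not tested. The median over the 8 genes was 0.15.

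Of 24 genes of receptor signalling and desensitization, 21 were tested, of which 5 were higher and 9 lower (median 0.01), against 19.4% and 20.9% of all tested genes. Rgs1 (2.47, SE 0.0998, adjusted p = 1.85e-22) and Rgs10 (0.99, SE 0.0663, adjusted p = 1.02e-15), which shorten G protein signals, and Arrb2 (0.93, SE 0.0878, adjusted p = 1.88e-11, edgeR), an arrestin that uncouples receptors, were higher in C1qa-high cells. Rgs18 (−1.37, SE 0.185, adjusted p = 7.72e-08), Rgs14 (−1.19, SE 0.230, adjusted p = 4.92e-05) and the receptor kinase Grk2 (−0.47, SE 0.127, adjusted p = 0.00264, edgeR) were lower.

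Between DEP and PBS mice no member was called, in all phagocytes or in any range, and neither was any other gene (0% of 5618 to 7109 tested genes, edgeR, with 152 to 271 genes at an unadjusted p under 0.05). DESeq2 called 4 genes in all phagocytes and 2 in the Ly6c2-low C1qa-high range, where edgeR with no gene filter called 74. Leaving out single mice also gave calls in some fits, with 1 mouse left in an arm. The levels in all phagocytes were 5.16 and 4.33 against 4.53 and 4.56 for Ccr2 (log2 fold change 0.06, SE 0.155). Cx3cr1 was at 3.82 and 3.78 against 4.04 and 4.02 (−0.08, SE 0.149), so both DEP mice lay just below both PBS mice, as they did for 13.1% of all tested genes. Ccr1 was at 2.77 and 2.62 against 3.05 and 2.41 (−0.01, SE 0.161).

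Cxcr4 showed the widest gap of the 4, at 0.599 and 0.822 in the DEP mice against 0.547 and 0.341 in the PBS mice. Both DEP mice were above both PBS mice, which held for 13.9% of all tested genes (log2 fold change 0.68, SE 0.236, unadjusted p = 0.0162, adjusted p = 0.999, edgeR). In the Ly6c2-low C1qa-high range it was at 0.676 and 0.819 against 0.538 and 0.356, again with both DEP mice above, as for 14.7% of genes. The log2 fold change there was 0.75 (SE 0.206, unadjusted p = 0.00291, adjusted p = 0.526). Cells of clusters 11 and 12, where Cxcr4 was highest, made up 7.10% and 8.50% of the phagocytes of the DEP mice and 5.87% and 4.65% of those of the PBS mice. Without these clusters, a choice made after seeing the data, the values were 0.65 (SE 0.234) in all phagocytes and 0.71 (SE 0.208) in the Ly6c2-low C1qa-high range. The value in all phagocytes rested on single mice, at 0.41 without DEP 13 or without PBS 3, 0.92 without DEP 11 and 1.01 without PBS 2, none of them called.

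The 17 genes of the tissue dissociation list, immediate early and heat shock genes that the isolation itself can induce, summed to 150 and 132 UMIs per 10000 in the DEP mice and to 185 and 172 in the PBS mice. None of the 17 was called, with a median log2 fold change of −0.26 against 0.00 over all genes. Between the ranges, 4 of them were higher in the Ly6c2-low C1qa-high cells, such as Dnajb1 (1.23, SE 0.0989) and Egr1 (0.84, SE 0.103), and 8 were lower, Nr4a1 most (−1.38, SE 0.0771), against 19.4% and 20.9% of all tested genes. Their part in the receptor levels was not tested.

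In the cells high for both, both DEP mice had more Ccr2 than both PBS mice (levels above), as for 15.8% of all tested genes. In the cells low for both, Ccr2 was at 10.1 and 9.44 against 8.82 and 7.60, with both DEP mice above as for 14.3% of genes. Ccr1 was at 1.72 and 1.65 against 3.03 and 2.05 there, with both below as for 16.7%. None of these differences was called, and with 2 mice a group such an order is common.

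**Figure D5:**
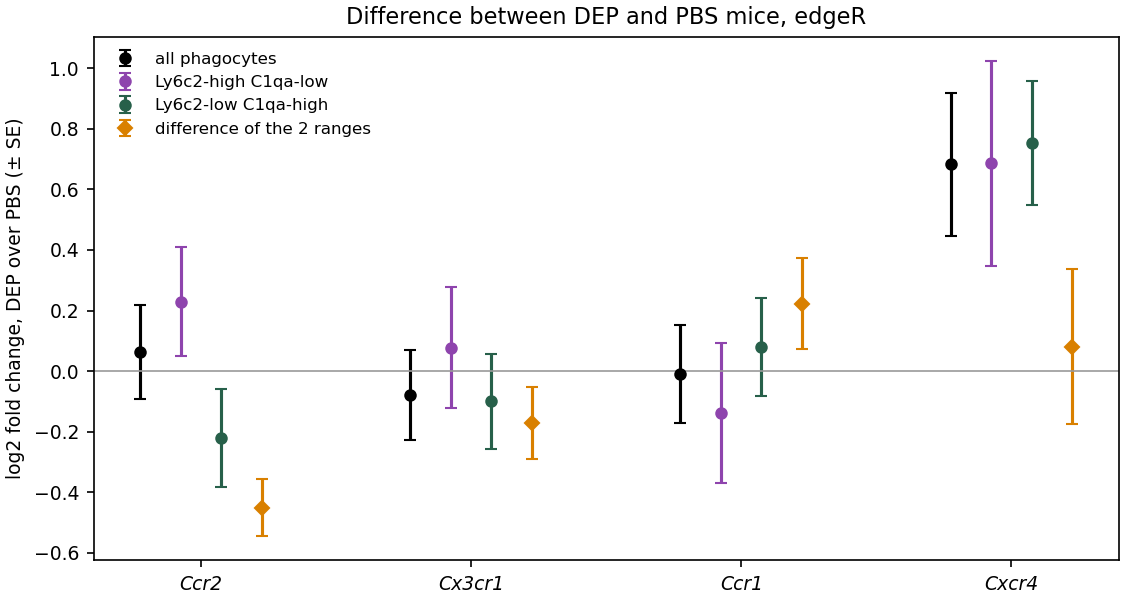
Log2 fold change of DEP over PBS mice with its SE (edgeR, 2 mice a group) for each receptor in all phagocytes (black) and in 2 ranges (purple and green), and the difference between these ranges (orange diamonds). No DEP effect was called. Among these receptors only Ccr2 had a called difference between the ranges (−0.45), and the call was lost in several alternatives.

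The difference of the DEP effect between the Ly6c2-low C1qa-high and the Ly6c2-high C1qa-low range was called for Ccr2 and for 0.332% of all tested genes. In the Ly6c2-high C1qa-low cells both DEP mice had more Ccr2 than both PBS mice (log2 fold change 0.23, SE 0.181), as for 15% of all tested genes. In the Ly6c2-low C1qa-high cells both had less (−0.22, SE 0.162), as for 15.4%. The ratio of the ranges within a mouse was −1.72 and −1.70 in the DEP mice against −1.18 and −1.30 in the PBS mice on the log2 scale, so Ccr2 fell further in the DEP mice. The fitted difference was −0.45 (SE 0.0952, adjusted p = 0.0312, edgeR). It kept its sign in every alternative but was not called with DESeq2 (adjusted p = 0.151), with no cluster removed (0.312), after thinning (0.153), with both cuts doubled (0.335), without DEP 11 (0.153), without DEP 13 (0.0657) or without PBS 2 (0.323). Each fit without a mouse leaves 1 mouse in an arm, which is assumed to vary like the others, and the difference was then between −0.50 and −0.40. For Cx3cr1, Ccr1 and Cxcr4 the differences were −0.17 (SE 0.119), 0.22 (SE 0.150) and 0.08 (SE 0.256), with adjusted p of 0.891 to 0.986.

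Markers of the axis itself moved in the same test. Of the other macrophage markers, 4 of 14 tested (Cd63, 0.78, C1qb, 0.60, C1qc, 0.59, and Cd81, 0.46) had a called difference of DEP effects above 0 (median of the 14 0.53). Of the other monocyte markers, 2 of 9 (Hp, −0.96, and F13a1, −0.71) had one below 0 (median −0.43), against a median of 0.00 over all tested genes. C1qa in the Ly6c2-high C1qa-low cells averaged 6.86 ± 0.979 with DEP and 10.4 ± 0.729 with PBS (SD, n = 2). C1qa set the ranges, so its level within a range is a description and no support. By the other markers, the larger fall of Ccr2 in the DEP mice is 1 of several differences in how far apart the ranges lay. It is not shown to be particular to Ccr2.

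The make-up of the C1qa-high range differed between the mice. Cluster 1, led by Apol7c and Apol7a, gave 273 of its 581 cells and 136 of its 359 cells with DEP, against 120 of 666 and 103 of 757 with PBS. Within cluster 1 Ccr2 was at 2.43 and 1.90 with DEP and at 2.82 and 2.91 with PBS. In cluster 2, of whose 593 cells 429 were in the Ly6c2-high C1qa-low range and 152 were low for both, it was at 7.57 and 6.65 against 5.96 and 6.05. In cluster 3 the mice overlapped, at 1.95 and 0.857 against 1.29 and 1.52. Over the 12 kept clusters, both DEP mice were above both PBS mice in clusters 2, 4 and 5, below in clusters 1, 7 and 12, and overlapping in the other 6. The share of all genes with such orders was not taken by cluster. With 2 mice a group they are common, so they are no result about Ccr2. The part of the make-up in the difference between the ranges was not tested.

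The share of phagocytes in the Ly6c2-low C1qa-high range was 52.9% and 59.8% in the DEP mice (95% exact binomial intervals 49.9 to 55.9 and 55.8 to 63.8). In the PBS mice it was 54.3% and 52.5% (51.5 to 57.1 and 49.9 to 55.1). In the Ly6c2-high C1qa-low range it was 20.7% and 18.5% against 20.7% and 20.5%, and in cells high for both 7.74% and 2.67% against 9.14% and 7.08%. With both cuts halved these orders changed, with 179 of 1098 and 104 of 600 Ly6c2-high C1qa-low cells in the DEP mice against 145 of 1226 and 186 of 1441 in the PBS mice, so both DEP mice were then higher. Of cells high for both there were then 233 and 71 against 415 and 382, a lower share in both DEP mice. The exact permutation test gave p = 0.667 for the Ly6c2-low C1qa-high range and 0.667 to 1 for the others (two-sided, n = 2 mice a group, adjusted 0.889 to 1), where 0.333 is the smallest p possible. The intervals cover counting error only.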

How the data were processed

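Single cells of the colon lamina propria of 4 mice, each a separate animal and the unit of replication, were captured with 10x Genomics 3′ v2 chemistry. The deposited values are raw UMI counts for each gene in each barcode. Per the submitters' notes, Cell Ranger (no version given), STAR 2.6.1a, the mm10 build and R 3.5.1 were used, and 10x 3′ counting keeps reads on the sense strand. The mouse of a barcode was read from its suffix. Symbols were found for 28339 of 28692 Ensembl identifiers.

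Barcodes with at least 1000 UMIs were log-normalized and clustered without the members (2000 variable genes, 30 principal components, Ward tree, 15 clusters; scanpy 1.11.5). Clusters whose 10 leading genes held more markers of other classes than of phagocytes were removed: a plasma cell cluster, a T and B cell cluster, and cluster 9, removed for Ear1 and Ear2 although led by Klrd1 and Cd209a and left unnamed. Cuts were Otsu thresholds. Doublets were scored with scrublet and kept.

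Counts were summed per mouse and stratum. Genes over 1 CPM in at least 2 sums and found in at least 5% of cells were tested with the edgeR 4.0.16 quasi-likelihood F test (TMM, Benjamini-Hochberg, FDR of 5%, R 4.3.3), and the SE is the log2 fold change divided by the root of F. Ranges were compared in 16 sums with the mouse as a block, since they come from the same mice. The test was also run on counts simulated with a fixed dispersion and no mouse effect, so that run does not cover the real spread between mice. Shares at 1000 UMIs are hypergeometric expectations. Named genes were the members, the 5 genes nearest to each in course, and list members called between ranges, up to 4 a direction, largest change first. The members and lists were chosen with earlier results of these data known. Total UMIs per mouse ranged from 4489342 to 10293703, so DEP 13 is the least precise. Promoter sequences came from RefSeq, matched by symbol for all 4 members. Alternatives were DESeq2 1.42.0, other scaling, gene and cell filters, doublet removal, thinning, other cuts, no block and leaving out each mouse. One result on the list of other chemokine receptors is not reported here.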

Additional observations from a re-analysis of the deposited data

Results flagged for a closer look

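The DEP effect on Ccr2 differed between the Ly6c2-low C1qa-high and the Ly6c2-high C1qa-low range by −0.45 on the log2 scale by the edgeR interaction test. Both DEP mice showed the larger fall. The call was lost in several alternatives, and other markers of monocytes and macrophages were called in the same test (above).

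The within-mouse log2 ratio of Ccr1 set 1 mouse apart from the other 3 in 2 comparisons (gap over range 0.844 for Ly6c2-low C1qa-high and 0.835 for cells high for both, each against Ly6c2-high C1qa-low). In both it was PBS 2, at 0.34 and 0.29, where the other mice had 0.73 to 0.90. Of 36 sets of 4 mice checked 2 stood out in this way, and chance flags about 1 in 20.

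Between the cells low for both and the Ly6c2-high C1qa-low cells, Ccr1 was lower in both DEP mice and higher in both PBS mice, a difference of −0.46 in mean log2 ratio that was not tested. Cx3cr1 had the same order in this comparison, with a difference of −0.15 that was not tested. From the cells high for both to the Ly6c2-low C1qa-high cells, Cxcr4 was higher in both DEP mice and lower in both PBS mice (difference 0.45, not tested). As few as 6 Cxcr4 UMIs stood behind a sum. The share of all genes with such opposite orders was not taken.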

How the results depend on the processing

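No paired analysis was possible because the DEP mice (11 and 13) and the PBS mice (2 and 3) share no replicate number. The ranges come from the same mice and were compared with the mouse as a block. Without that block the Cxcr4 difference between the Ly6c2-low C1qa-high and the Ly6c2-high C1qa-low range was 0.44 and the Ccr2 difference between the Ly6c2-low C1qa-high cells and those high for both was −0.66, and neither was called.

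Of the log2 fold changes of the 4 receptors under an alternative, 396 kept their direction and their side of the threshold, 15 were no longer called and 13 changed sign. Ccr2, Cx3cr1 and Ccr1 between the Ly6c2-low C1qa-high and the Ly6c2-high C1qa-low range were among those kept throughout. The same Cxcr4 difference was 0.50 after thinning, 0.29 with both cuts halved and 0.30 to 0.48 without single mice. Ccr1 in cells high for both was 0.24 with both cuts doubled, beside a median of −0.52 over all tested genes. Ccr2 between the Ly6c2-low C1qa-high cells and those high for both was −0.47 after thinning, 0.71 with cuts doubled and −0.75 to −0.45 without single mice. The 0.71 stands beside a median of 0.51 over all tested genes and rests on 3 to 9 cells high for both in a mouse, so its sign is no result about Ccr2. The Ccr2 difference of DEP effects was −0.44 with DESeq2, −0.38 with no cluster removed, −0.63 after thinning, −0.44 with cuts doubled and −0.50 to −0.40 without single mice. The same difference was 0.11 for Cx3cr1 after thinning, and without single mice −0.051 to 0.43 for Ccr1 and −0.21 to 0.32 for Cxcr4. In DEP comparisons without a mouse, the mouse left alone in its arm is assumed to vary like the others. The cause of the other shifts was not tested.

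None of the DEP effects was called, and several changed sign. In all phagocytes Cx3cr1 was 0.10 and Ccr1 0.057 after thinning, and without single mice Ccr2 ran from −0.042 to 0.16, Ccr1 from −0.13 to 0.13 and Cxcr4 from 0.41 to 1.01. In the Ly6c2-high C1qa-low range Cx3cr1 was −0.018 with no cluster removed, and Ccr1 ran from −0.42 to 0.22 without single mice. In the Ly6c2-low C1qa-high range Cx3cr1 was 0.10 after thinning and Ccr1 ran from −0.00038 to 0.17 and Cxcr4 from 0.52 to 1.03 without single mice.

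Over all genes, DEP against PBS in all phagocytes gave 4 calls with DESeq2, 70 with no gene filter and 0 to 30 without single mice. The Ly6c2-low C1qa-high against the Ly6c2-high C1qa-low range gave 767 calls after thinning, which left 1978 genes to test, so that 38.8% were called against 40.3%. Between the Ly6c2-low C1qa-high cells and those high for both 111 genes were called, against 42 to 101 without single mice. Between the cells low for both and the Ly6c2-high C1qa-low cells 364 were called, against 213 to 261. The difference of DEP effects gave 22 calls, against 9 with DESeq2, 41 with no gene filter, 40 with at least 2000 UMIs, 7 with no cluster removed, 4 after thinning, 41 with cuts halved, 2 with cuts doubled, 38 without clusters 11 and 12 (chosen after seeing the data) and 13 to 41 without single mice. For shares of cells, DEP minus PBS in percentage points was −1.04 in the Ly6c2-high C1qa-low range, against 4.45 with cuts halved and −2.13 to 0.044 without single mice. In cells high for both it was −2.90, against −13.7 with cuts halved, 0.13 with cuts doubled and −5.44 to −0.37 without single mice. It was 1.0, against −0.94 with cuts doubled and −1.01 to 3.01 without single mice in cells low for both, and 2.95, against −0.51 to 6.41 without single mice in the Ly6c2-low C1qa-high range. With cuts halved, 130 of 1098 and 70 of 600 cells of the DEP mice were low for both. In the PBS mice 68 of 1226 and 132 of 1441 were, a lower share in both. The Ly6c2-low C1qa-high range then held 556 and 355 cells against 598 and 741, with shares that overlapped.

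With 2 mice a group, 16 cells high for both in DEP 13 and as few as 6 Cxcr4 UMIs in a sum, the precision of Cxcr4 and of that range is the lowest. Subtracting free RNA widened the gap between the ranges for Ccr2, Cx3cr1 and Ccr1. Taking the same profile from both ranges at a like share widens a gap by arithmetic, so this is no check of it. Ly6c2 and C1qa are themselves caught as free RNA, so the ranges share this limit.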
